A study of Mus musculus with 46 samples.

Results

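The Nanog promoter was measured as P010, a fragment of the Nanog library that spans chr6:122707113-122707563 (mm10). Its members are all constructs of the Upstream assay that hold P010, in either order with a partner and on either strand. There were 467 of them, among 89293 Upstream constructs in all and 13524 of the Nanog locus. In 185 constructs a candidate cis-regulatory element (cCRE) preceded P010, in 241 P010 preceded a cCRE, and in 41 P010 was paired with another promoter, 20 times as the second fragment and 21 times as the first. P010 was on the + strand in 87 and on the - strand in 98 of the 185, and on the + strand in 132 and on the - strand in 109 of the 241. Leaving aside 3 constructs that read 0 in a replicate, 464 were used, with 74 different cCREs before P010 and 82 after it, out of 105 cCREs and 18 promoters in the library.

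Nanog encodes a homeodomain transcription factor that helps to keep embryonic stem cells pluripotent. Its promoter is known for neighbouring octamer and SOX elements, bound by OCT4 and SOX2, and enhancers near the gene, farther upstream, and downstream at Slc2a3 have been described in mouse embryonic stem cells. In a massively parallel reporter assay each plasmid carries a barcode in its reporter transcript, so that RNA barcodes over plasmid barcodes give the activity of the fragments on that plasmid, outside their chromosome.

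The assay was run in E14TG2a cells, an established line of mouse embryonic stem cells, kept in 2i+LIF medium, which holds them in a naive state. Plasmid libraries of the Nanog and Klf2 loci and of negative controls were delivered by nucleofection as a single mix, and RNA was collected 24 h later. The group is made of 3 biological replicates, each a separate transfection, and there are 2 samples of the plasmid input. All constructs were read in the same 3 transfections, none of the cells differed in genotype or treatment, and a construct's controls are other constructs of the same sample. Whether a construct's barcodes act alike cannot be told from replicates that share their plasmids.

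The part of P010 that lies just before the annotated start of Nanog is shown because its activity with no partner is the level against which partners are compared. P010 holds that start, at position 122707489 on the + strand of chromosome 6, where the gene extends to 122714633. The fragment begins 376 bases before the start and ends 74 bases after it, inside the gene. A second annotated start at 122707565 lies just outside the fragment. The 250 bases before the first start are those of RefSeq's GRCm38.p6 (chr6:122707239-122707488, + strand). Capitals mark an octamer motif and a SOX motif.

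Nanog: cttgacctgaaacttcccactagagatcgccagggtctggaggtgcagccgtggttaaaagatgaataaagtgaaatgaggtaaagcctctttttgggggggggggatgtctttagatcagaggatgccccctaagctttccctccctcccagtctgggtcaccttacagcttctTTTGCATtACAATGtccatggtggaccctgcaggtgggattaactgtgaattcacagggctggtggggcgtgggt

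TTTGCAT, part of the octamer bound by OCT4, lies 75 to 69 bases before the start on the + strand. It was present in 4.12% of 32851 RefSeq promoters over the same window. CATTGT, a SOX motif, lies 67 to 62 bases before the start on the - strand, where the + strand reads ACAATG, and was present in 10.7% of promoters. The octamer and SOX matches do not overlap. Both strands were also searched for 6 further motifs. AAGGTCA, read by ESRRB and other nuclear receptors, was present in 4.08% of promoters. GGGTGTG, read by KLF factors, was present in 6.93%. GGGCGG, the GC box of SP and KLF factors, was present in 32.7%. The STAT motif TTCNNNGAA was present in 7.02% and the E-box CACGTG in 6.02%. The T-A rich core element TATAAA was present in 12.4%. None of these 6 occurred in this window.

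With no partner, P010 was among the most active promoter fragments of its locus. On the + strand its activity was 0.789, 0.627 and 0.864 in replicates 1 to 3 (0.76 ± 0.121, SD, n = 3), and on the - strand it was 0.451, 0.341 and 0.522 (0.438 ± 0.0915, SD, n = 3). The construct without a fragment read 0.118, 0.0675 and 0.238. P010 was therefore above the empty construct on either strand in every replicate, by 2.19 to 5.05 times on the - strand and 3.62 to 9.29 times on the + strand. Replicate 2 had the lowest and replicate 3 the highest level of the empty construct. Relative to its mean, the empty construct spread more between replicates (0.141 ± 0.0878, SD, n = 3) than P010+ did. Of the 32 other single promoters, counted by strand, only P001+ was higher than P010, with a geometric mean of 4.36. P001 lies nearest to M6pr, the gene of a mannose 6-phosphate receptor. The other promoters had a median of 0.105, with the lowest at 0.0625, and 7 of the 32, P001+ among them, were above the empty construct in all 3 replicates.

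**Figure D1:**
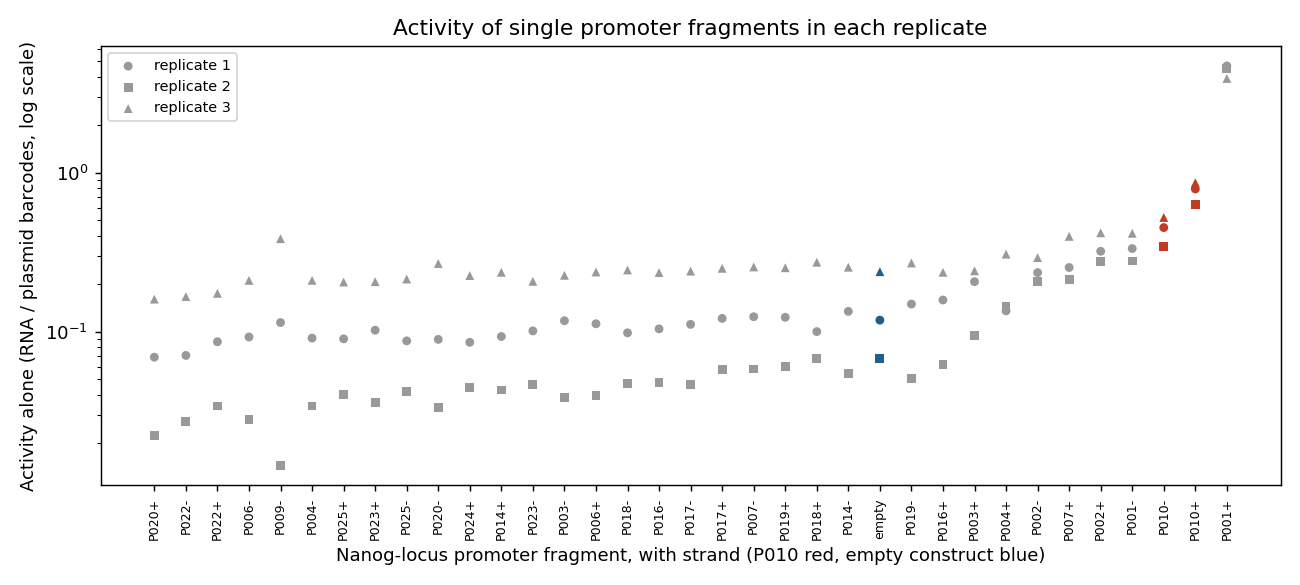
Activity of each promoter fragment of the Nanog library with no partner, by replicate, on a log scale, ordered by the geometric mean. P010 (red) stood above the empty construct (blue) in all 3 replicates on either strand, and P001+ at 4.36 was the only promoter above it.

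P010+ was higher than P010- in all 3 replicates, with log2 differences of 0.81, 0.88 and 0.73. The 2 strands did not overlap. The mean log2 difference of 0.80 (SE 0.37) did not pass limma's test over all single fragments measured on both strands (adjusted p = 0.55, in a family where 1.75% passed as higher on the + strand). With the replicate as a block it passed, with an adjusted p of 0.026.

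cCREs placed before P010 gave activities from 0.12 to 7.05 with P010+ (geometric means, median 0.859, 87 constructs) and from 0.0692 to 6.61 with P010- (median 0.567, 97 constructs). A construct was called where limma's log2 difference from P010 alone on the same strand had a Benjamini-Hochberg adjusted p under 0.05 over all cCRE and promoter pairs of the locus. Of the 184 constructs, 38 were called higher and 3 lower, which is 20.7% and 1.63%. Over all 1256 pairs of the locus with the cCRE first, 12.8% were called higher and 0.239% lower. The 3 lower calls with P010 were the only ones of the locus in this order, so they make up the whole of that share. The other promoters had a median of 0.105 alone, about the level of the empty construct, where a decrease can hardly be seen. Whether this level accounts for the lack of lower calls with them was not tested. The median log2 difference was 0.31 over the P010 constructs (0.16, 0.56 and 0.21 in the 3 replicates) and -0.06 over all pairs. Of the 38 higher calls, 13 were with P010+ and 25 with P010-, while all 3 lower calls were with P010+, the stronger baseline. By cCRE, 22 of 74 had a higher call and 3 a lower one. The last construct inside the threshold had an adjusted p of 0.0492 (E080- before P010+) and the first outside 0.0507 (E113+ before P010-). Counts rested on the replicates kept: 21 higher and 0 lower calls were left without replicate 2, and 21 and 1 without replicate 3. Without replicate 1 limma called 0 in both directions, with 16 higher and 0 lower at an unadjusted p under 0.05. With the replicate as a block, 54 were higher and 18 lower, 11 of the lower with P010+ and 7 with P010-. The shares given above over all pairs of the locus are without the block, so these counts cannot be set beside them.

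The cCREs closest to P010 on its upstream side, E073 and E074, overlap each other between Gm10224 and Nanog. E073 had the highest mean log2 difference of the 74 cCREs before P010. E073 (chr6:122702445-122702895) lies 4.7 kb before P010 and was called higher in all 3 combinations of strands measured, with a mean of 3.66 ± 0.38 (SD, n = 3 replicates). With E073+ before P010-, the activities were 6.54, 7.54 and 5.85, against 0.451, 0.341 and 0.522 for P010- alone. Each replicate of the pair was above all of P010- alone, and the log2 difference was 3.94 (SE 0.46, limma adjusted p = 0.011), a 15.3-fold difference. With E073- the activities were 6.41, 6.43 and 6.4 (log2 difference 3.89, SE 0.46, adjusted p = 0.011). E073+ before P010+ read 6.49, 7.11 and 6.44, close to its values with P010-, so that the log2 difference over the stronger P010+ was 3.15 (SE 0.45, adjusted p = 0.011). E074 (chr6:122702829-122703279), 4.3 kb before P010, was called higher in all 4 combinations, with a mean log2 difference of 3.08 ± 0.41 and activities between 3.32 and 6.82.

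Fragments farther upstream and in Slc2a3 were also called higher with P010. E064 (chr6:122662793-122663243), in no gene and 44.3 kb before P010, was called in all 4 combinations with a mean log2 difference of 3.08 ± 0.41 (SD, n = 3). E064- before P010+ read 7.08, 7.51 and 6.59, the highest mean of all constructs with a cCRE before P010, and did not overlap P010+ alone. E064+ before P010- read only 2.68, 2.63 and 2.38, still above P010- alone in each replicate (log2 difference 2.57, SE 0.46, adjusted p = 0.015). E090 (chr6:122770250-122770700), inside Slc2a3, a glucose transporter gene, and 63.1 kb after P010, was called in both combinations measured. E090- read 5.47, 6.18 and 4.79 before P010+, and 3.62, 4.31 and 3.58 before P010-, against P010 alone at under 1 in all replicates.

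Strong partners also lay far from Nanog. E116 (chr6:122935645-122936095), 228.5 kb after P010 and nearest to the lectin gene Clec4a1, was called in all 4 combinations with a mean log2 difference of 3.26 ± 0.40 (SD, n = 3). E005 (chr6:122342077-122342527), 365.0 kb before P010 and nearest to the Polycomb gene Phc1, was measured in 1 combination and read 7.3, 7.32 and 6.14 with P010+ (log2 difference 3.19, SE 0.45, adjusted p = 0.011). The replicates of E005 were all above P010+ alone. E137, 582.2 kb away in the lectin gene Clec4e, had a mean log2 difference of 2.39 ± 0.47, E043, 116.0 kb away in Apobec1, the gene of an RNA-editing deaminase, 2.35 ± 0.59, and E136, 549.4 kb away near Clec4d, 2.27 ± 0.28. All 3 were called in both combinations measured. E113, 190.6 kb away, had the same mean of 2.25 in each of its 2 combinations, of which 1 was called. Across the 74 cCREs, which share libraries and baseline, Spearman's rho of the mean log2 difference with the distance from P010 was -0.03.

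**Figure D2:**
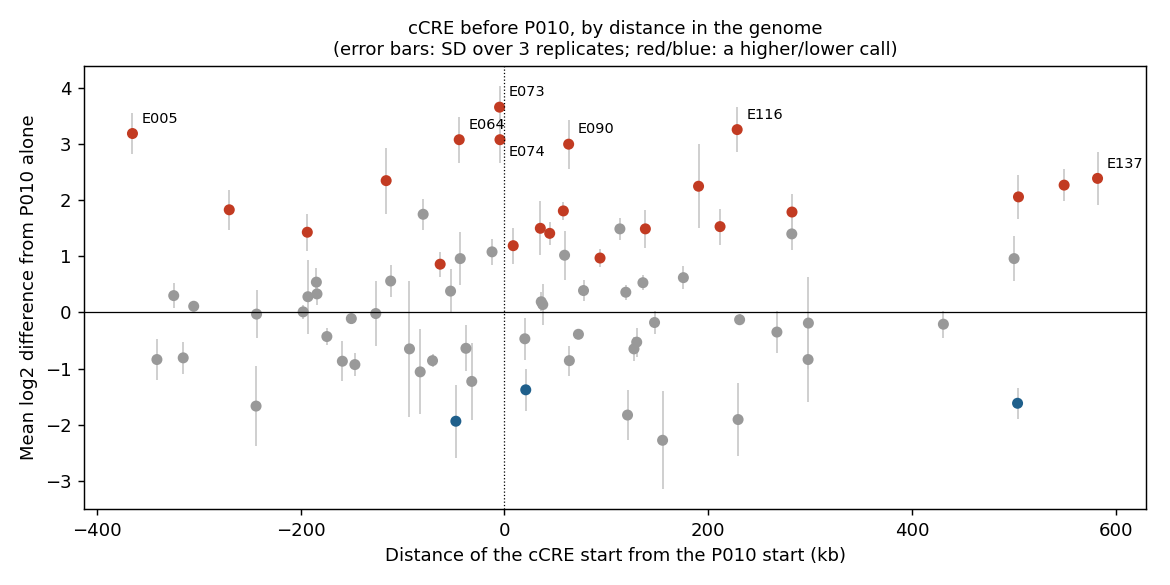
Mean log2 difference of each of the 74 cCREs placed before P010 from P010 alone (mean over strands measured, error bars SD over 3 replicates), by distance in the genome. E073 and E074 (4.7 and 4.3 kb away) and E005, E116 and E137 (365.0, 228.5 and 582.2 kb away) were all among those with a higher call (red).

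The cCREs nearest to Nanog were not all active with its promoter. E075 (chr6:122715809-122716259), 8.7 kb after P010 and just past the end of the gene, read 1.65, 1.95 and 1.83 before P010-. These were above P010- alone in each replicate (log2 difference 2.07, SE 0.46, limma adjusted p = 0.03). Before P010+ E075+ read 1.03, 0.911 and 0.856, against 0.789, 0.627 and 0.864 for P010+ alone. E076 (chr6:122719935-122720385), 12.8 kb after P010, was measured once, behind P010+, at 0.0621, 0.133 and 0.336. It lay below P010+ alone in each replicate and was not called.

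The 5 cCREs with the lowest means before P010 were E110 (-2.28 ± 0.87), E062 (-1.94 ± 0.65), E117 (-1.91 ± 0.65), E103 (-1.83 ± 0.45) and E020 (-1.67 ± 0.72), given as mean log2 differences with SD over 3 replicates. Of these, 1 passed the test in this order: E062- before P010+ read 0.17, 0.0518 and 0.196, all below P010+ alone (log2 difference -2.65, SE 0.65, adjusted p = 0.04). E062 lies at chr6:122659538-122659988, 47.6 kb before P010. The other lower calls, named because they were few, were E080- at -1.94 (SE 0.50, adjusted p = 0.049) and E133- at -1.84 (SE 0.46, adjusted p = 0.042), both with P010+. E080 lies in Slc2a3, 21.0 kb from P010. These constructs were at or near the level of the empty pair, 0.122, 0.07 and 0.24, which limits how far a decrease can be measured. No lower call was made with P010-, whose own level is closer to that of the empty construct. With the replicate as a block this changed, and all 5 of the lowest cCREs had a lower call in at least 1 combination, among them E110+ (adjusted p = 0.028), E103+ (0.015), E020- (0.024), E062+ (0.046) and E117+ (0.046) before P010-.

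The cCREs differed in how active they were with no partner. E073+ alone read 3.67, 3.84 and 3.5, E074+ 4.01, 4.02 and 3.7, E064- 2.18, 2.29 and 2.39, and E116- 1.6, 1.01 and 1.26, all above P010 alone. By contrast E137+ alone read 0.123, 0.0554 and 0.236 and E114+ 0.108, 0.0466 and 0.237, about the level of the empty construct. Yet E114+ before P010- read 2.53, 1.83 and 2.51 (log2 difference 2.39, SE 0.47, adjusted p = 0.02), above both fragments alone in each replicate. Of the 38 higher calls, 17 had a cCRE that read less alone than P010-. Pearson's r between the log2 activity of the cCRE alone and the log2 difference was 0.72 over 184 constructs, which share replicates, baselines and cCREs.

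Pair activity was also set beside the sum of the activities of both fragments alone, a sum that counts the empty plasmid's signal with each fragment. Over the 184 constructs with the cCRE first the median ratio to that sum was 0.943, and 69 exceeded it in all 3 replicates. The ratio was 1.61 for E073+ before P010-, 2.33 for E064- before P010-, 3.00 for E116- before P010-, 4.14 for E114+ before P010- and 5.19 for E137- before P010-, the highest among the calls. The lowest ratio among the calls was 0.995, for E064+ before P010-. Called constructs were chosen for their high activity, so their ratios are a description with no test. With P010 first the median ratio was 0.611 over 239 constructs.

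**Figure D3:**
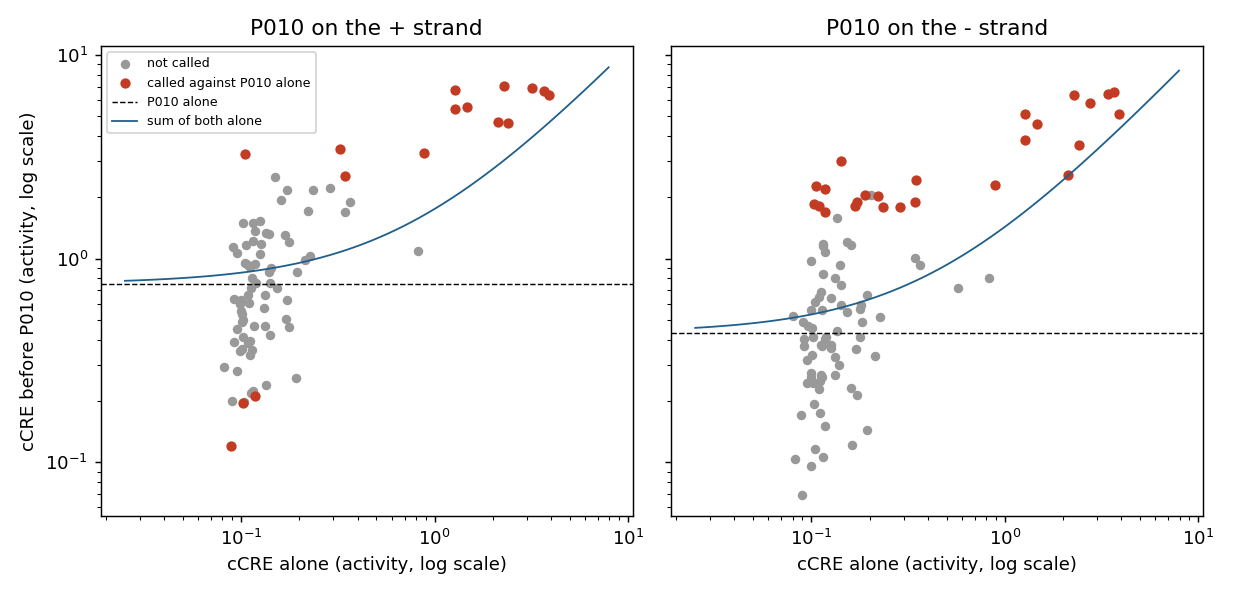
Activity of the pair with the cCRE before P010 against that of the cCRE alone, both on log scales (geometric means of 3 replicates), for P010+ (left) and P010- (right). Calls (red) on the right include cCREs near 4 alone, such as E074+, and cCREs near the empty level, such as E114+ at 0.106; the dashed line is P010 alone and the curve the sum of both alone.

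With P010 in the first position and the cCRE behind it, activities ranged from 0.0463 to 8.53 with P010+ (median 0.588, 132 constructs) and from 0.0683 to 4.91 with P010- (median 0.327, 107 constructs). Of 239 constructs, 36 were called higher than P010 alone and 7 lower, or 15.1% and 2.93%. Over all pairs of the locus in this order, 13.1% were called higher and 0.483% lower. The lower calls were again all with P010. Most other promoters alone were near the level of the empty construct, and whether this accounts for it was not tested. The median log2 difference was -0.40, against 0.13 over all 1450 pairs. All 7 lower calls had P010+, and 22 of the 36 higher calls. Without replicate 1, limma called 0 in either direction (13 higher and 3 lower at an unadjusted p under 0.05), and without replicate 3 it called 17 lower. With the replicate as a block 64 were higher and 62 lower, and 26 of the lower were with P010-. The shares over all pairs of the locus are without the block and are no measure for these counts.

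Among cCREs behind P010, E064+ gave the highest activity of all constructs with P010. It read 8.76, 8.99 and 7.88 behind P010+ (log2 difference 3.50, SE 0.55, adjusted p = 0.0054), far above P010+ alone. E073, E116, E074 and E064 were called higher in all combinations measured, with mean log2 differences of 3.40 ± 0.38, 3.12 ± 0.37 and 2.99 ± 0.36 for the first 3 (SD, n = 3). The same held for E005 (3.36 ± 0.50, 1 combination), E134 (3.23 ± 0.42, 2 combinations) and E090 (2.68 ± 0.35, 4 combinations). E015 (chr6:122393046-122393496), near 1700063H04Rik and 314.1 kb from P010, was called higher in all 4 combinations (2.64 ± 0.43), and E138, 586.6 kb away near Clec4e, in both measured (2.76 ± 0.37). On the low side, P010+ before E062+ read 0.0726, 0.0235 and 0.243 and P010+ before E133- 0.075, 0.0118 and 0.137. Both lay below P010+ alone in each replicate, with log2 differences of -3.34 (SE 0.88, adjusted p = 0.042) and -3.93 (SE 0.94, adjusted p = 0.027). These comparisons share P010 alone as their baseline with those of the other order, so the orders were compared directly.

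The same fragments on the same strands were measured in both orders in 138 cases, with 61 cCREs. Activity was higher with the cCRE before P010 in 98 of them, with a median log2 difference of 0.41 (0.32, 0.51 and 0.29 by replicate), while it was -0.25 over the 509 pairs with other promoters. In 97 cases the orders lay within 2-fold of each other, and Pearson's r of log2 activities was 0.86 over pairs that share fragments and libraries. In 6 cases the activity was called higher with the cCRE first and in 2 with P010 first. Over all 647 matched pairs of the locus 0.927% were called higher and 3.25% lower with the cCRE first. No pair of another promoter was called higher by limma, and 19 of 509 were called lower. With any 1 of the 3 replicates left out limma called none of the 138, while 12, 13 and 27 had an unadjusted p under 0.05 without replicates 1, 2 and 3.

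E096, in Slc2a3 and 93.9 kb from P010, showed the largest difference between orders. E096+ before P010+ read 3.8, 2.95 and 3.15, and behind it 0.246, 0.443 and 0.452, with no overlap (log2 difference 3.16, SE 0.36, limma adjusted p = 0.035). E096- with P010+ went the other way, at 0.935, 0.633 and 0.749 before it and 1.39, 1.8 and 1.52 behind it. That difference was not called (-1.04, SE 0.30, adjusted p = 0.12). E114 gave 2 of the calls: E114- read 2.24, 2.16 and 1.33 before P010- and 0.261, 0.201 and 0.32 behind it (log2 difference 2.86, SE 0.36, adjusted p = 0.035), and E114+ differed by 2.33 (SE 0.28, adjusted p = 0.035). With P010+ neither strand of E114 was called. E114+ was then lower before the promoter (-0.64, SE 0.28, adjusted p = 0.13) and E114- higher (0.79, SE 0.27, adjusted p = 0.18). E075+ with P010- (1.67, SE 0.25) and E107+ with P010+ (1.59, SE 0.27) also passed, at adjusted p of 0.041 and 0.042.

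E057 (chr6:122644070-122644520), in Gm8460 and 63.0 kb before P010, was called in opposite directions on its 2 strands. E057+ with P010+ read 0.942, 0.977 and 1.02 before the promoter and 3.26, 3.17 and 3.1 behind it (log2 difference -1.70, SE 0.25, adjusted p = 0.041). E057- with P010+ read 1.74, 1.77 and 1.64 before it and 0.489, 0.331 and 0.545 behind it (log2 difference 1.95, SE 0.31, adjusted p = 0.041). The orders did not overlap in either case, so E057+ was higher behind P010+ and E057- before it. E057+ with P010- was also lower before the promoter, by a log2 difference of -1.81 (SE 0.31, adjusted p = 0.042). Alone, E057 read 0.214, 0.13 and 0.349 on the + strand and 0.223, 0.146 and 0.336 on the - strand, which overlap.

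**Figure D4:**
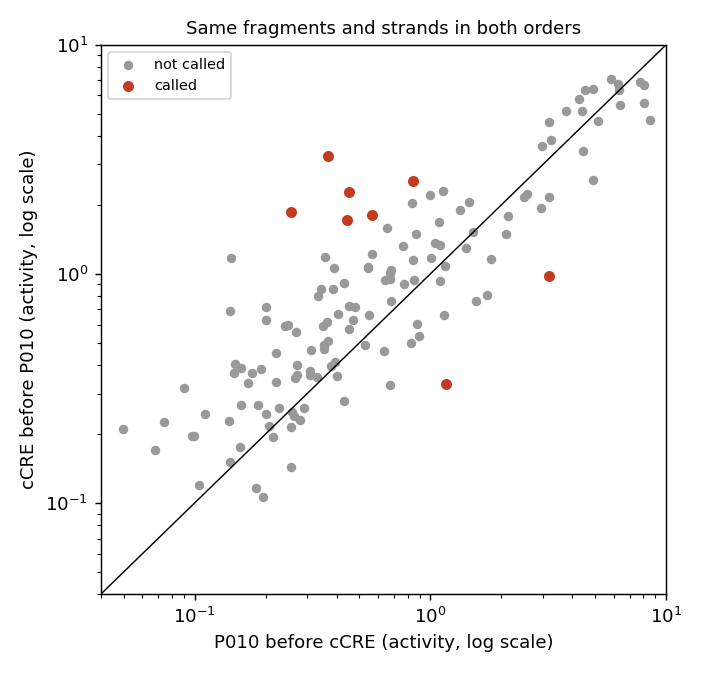
Activity with the cCRE before P010 against activity with P010 before the same cCRE on the same strands, on log scales (geometric means of 3 replicates, 138 pairs). Most points lie above the line of equal activity (98 of 138), with 6 calls above it and 2, both of E057+, below it.

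The strand of the cCRE gave few calls, and a difference that was not called may still be present. Of 50 cases with both strands of a cCRE before P010 on the same strand, 43 lay within 2-fold, the + strand was higher in 23 and the median log2 difference was -0.03. E134+ before P010- read 4.91, 6.73 and 5.85, and E134- before P010- 0.852, 0.974 and 0.984, with no overlap (log2 difference 2.63, SE 0.28, limma adjusted p = 0.042). E134 lies 504.6 kb from P010, in no gene. In the opposite direction, E057+ before P010- read 0.325, 0.262 and 0.431 and E057- 1.91, 2.2 and 2.01 (log2 difference -2.62, SE 0.31, adjusted p = 0.042). These were the 2 calls, 1 in each direction, and 0.283% of all matched pairs of the locus passed in each direction. E096+ before P010+ was also above E096- in each replicate (log2 difference 2.11, SE 0.30). It was not called (adjusted p = 0.06) but passed with the replicate as a block (0.047). Alone, E134+ read 2.62, 2.67 and 2.93 and E134- 0.382, 0.274 and 0.46. Leaving out any replicate left limma 0 calls with P010 (4, 5 and 6 at an unadjusted p under 0.05 without replicates 1, 2 and 3).

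The strand of P010 was compared in 77 cases with the same oriented cCRE before it. P010+ was higher in 57, with a median log2 difference of 0.40 (0.42, 0.44 and 0.34 by replicate), beside 0.80 between the strands with no partner. In 1 case the difference was called, higher with P010+. Over all 447 such cases of the locus 2.91% were called higher on the + strand. The call was lost with the replicate as a block (adjusted p = 0.052), with any replicate left out (0 calls, with 1, 4 and 10 at an unadjusted p under 0.05 without replicates 1, 2 and 3) and with constructs at 0 kept (adjusted p = 0.059).

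The effect of each oriented cCRE on P010 was also compared with the mean effect of the same oriented cCRE on at least 3 other promoters of the library. Of 170 constructs, 15 were called higher with P010 (8.82%) and none lower by limma, with 16 lower at an unadjusted p under 0.05. Over all 1139 pairs of the locus 1.49% were called higher and 0.263% lower, and of the 969 pairs of other promoters 2 and 3 were called. The count was 9 with the replicate as a block. It was 4 without replicate 2 and 0 without replicate 1 or replicate 3, where 37 and 52 had an unadjusted p under 0.05.

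In all 15 cases the median over the other promoters was 0.112 or less, below the geometric mean of the empty pair, 0.127. E137- had the largest difference. Its activity was 3.01 (geometric mean) before P010-, and from 0.0548 to 0.127 before 4 constructs of 3 other promoters (log2 difference of effects 3.04, SE 0.34, adjusted p = 0.022). E096+ read 3.28 before P010+ and 0.0539 to 0.0947 before 5 constructs of 3 other promoters (2.53, SE 0.31, adjusted p = 0.023). E085+, in Slc2a3 and 44.5 kb from P010, read 2.21 before P010-, with a median of 0.109 and a highest of 3.07 before 7 other constructs (2.68, SE 0.31, adjusted p = 0.022). E114 passed on both strands, E114+ with 2.71 (SE 0.27, adjusted p = 0.022) and E114- with 2.47 (SE 0.43, adjusted p = 0.048, and 0.073 with the replicate as a block). E075+ (2.32, SE 0.31), E057- (2.31, SE 0.33) and E017- (2.26, SE 0.29), all before P010-, had adjusted p of 0.028, 0.036 and 0.026. Unlike E137- and E096+, these 3, E085+ and both strands of E114 were more active before another promoter than before P010-. The highest other value was 3.44 for E075+ (1.81 before P010-), 3.15 for E057- (2.04) and 2.97 for E017- (1.9). It was 2.48 for E114+ (2.27) and 3.07 for E114- (1.86). Of their other constructs, 1 each was above 2 times the empty level, and 2 for E057-. The remaining 7 calls lay between 1.57 and 2.07.

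E073, E074, E064 and E116 were not among these calls, though E137- was. E005, E043 and E113 were measured before only 2 other promoters each, fewer than the 3 needed, and were not tested. E073 read 6.41 to 6.67 with P010 and a median of 1.84 (0.793 to 5.25) before 23 constructs of 10 other promoters. E074 read 3.6 to 6.36 with P010 and a median of 1.46 (0.375 to 7.74) before 52 constructs of 16 other promoters. Its highest value was thus with another promoter. For both, as for E064 and E116, the effect on another promoter was taken over that promoter alone, which was lower than P010 except for P001+, and the difference of effects did not pass. With the replicate as a block 1 of these constructs passed, E116- before P010- (log2 difference of effects 1.99, SE 0.43, adjusted p = 0.083 without the block and 0.045 with it).

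**Figure D5:**
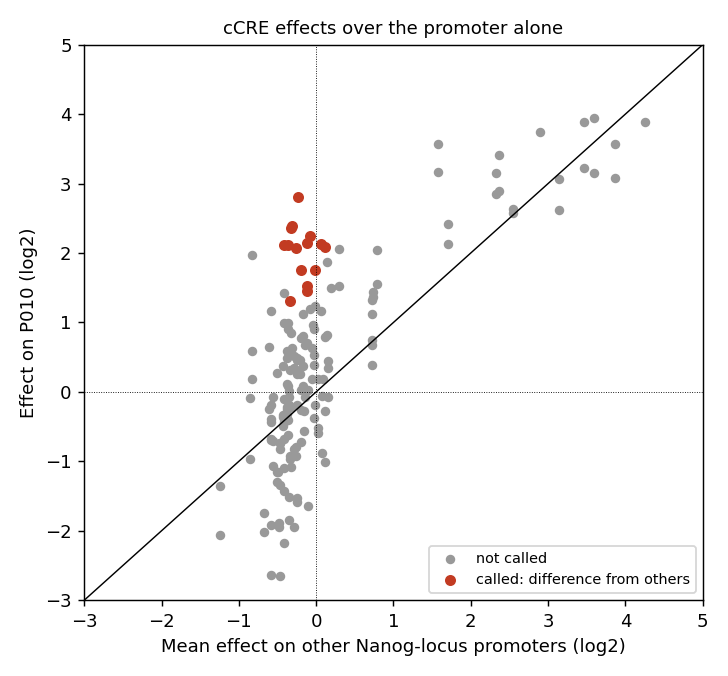
Effect of each oriented cCRE on P010 against its mean effect on the other promoters of the library (log2 over the promoter alone, mean of 3 replicates, 170 constructs). The 15 calls (red) have effects on P010 between 1.31 and 2.80 and mean effects on other promoters between -0.41 and 0.11, while the partners at upper right had effects above 1 on both.

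The promoters whose cCRE effects were most like those of P010, by Pearson's r over shared oriented cCREs, were P007 at the start of Apobec1 (r = 0.88, 28 shared), P014 at the start of C3ar1, a complement receptor gene (r = 0.86, 15 shared), and P004, nearest to Rimklb (r = 0.85, 38 shared). The lowest was P001 (r = 0.57, 41 shared), whose + strand was more active alone than P010. The points share cells, libraries and cCREs. Each r was taken over a different set, from 11 cCREs for P018 to 107 for P016, where the median effect on P010 was 0.30. The ranking may therefore depend on which cCREs were measured. Over the cCREs shared with P007 the median effect was 0.89 on P010 and 0.06 on P007.

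Other promoters placed before P010 gave activities between 0.108 and 1.65 in 20 constructs of 11 promoters, with a median log2 difference from P010 alone of -0.67 (-0.62, -0.60 and -0.49 by replicate) and no call by limma. The highest was P003- before P010-, at 1.87, 1.44 and 1.67. These were above P010- alone in each replicate (log2 difference 1.94, SE 0.47), but the adjusted p was 0.24. Placed before one of 10 other promoters, P010 gave activities between 0.0986 and 5.66 in 21 constructs. Against P010 alone their median log2 difference was -1.28 (-1.35, -1.48 and -0.91 by replicate), with 5 of the 21 above 0. Against the other promoter alone it was 0.89, with 20 of the 21 above 0.

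Over both positions, 1 of 41 promoter pairs with P010 was called against the second promoter, where 0.725% of all 138 promoter pairs were called higher and none lower. P010+ before P004+ read 2.46, 2.55 and 2.02, against 0.135, 0.143 and 0.307 for P004+ alone, with no overlap (log2 difference 3.69, SE 0.54, limma adjusted p = 0.047). With the replicate as a block its adjusted p was 0.056, and the call was also lost without any 1 of the replicates (0 calls, with 1, 6 and 8 at an unadjusted p under 0.05 without replicates 1, 2 and 3). Against P010+ alone the same pair was not called (1.63, SE 0.70, adjusted p = 0.22). Against the first promoter 3 of 41 were called, where 5.8% of all promoter pairs were called higher. P003- before P010- differed from P003- alone by 4.04 (SE 0.84, adjusted p = 0.019) and P004- before P010- from P004- alone by 3.88 (SE 0.85, adjusted p = 0.023). P003- and P004- alone were at or below about the empty level. Against P010- alone neither pair was called, and P004- before P010- differed from it by 1.56 (SE 0.49, adjusted p = 0.46). The third, P010+ before P001+, read 6.23, 6.41 and 4.53 and differed from P010+ alone by 2.91 (SE 0.70, adjusted p = 0.037), but from P001+ alone, at 4.69, 4.51 and 3.91, by 0.38 (SE 0.46, adjusted p = 0.86). Against the first promoter the count was 29 with the replicate as a block (18 higher and 11 lower, where all 3 without it were higher), 9 without replicate 3 and 0 without replicate 1.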

How the data were processed

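The authors deposited, for each construct and biological replicate, an activity, which is a linear ratio of RNA (cDNA) to plasmid (pDNA) barcodes, with further columns named for each fragment of the pair. Those columns were read here as the activity of the single fragment, because they hold one value per fragment and strand in either position; the labels do not say so in words, and every comparison with a fragment alone rests on that reading. Per the submitters' processing notes the tools include Bowtie2 and the build mm10; versions, barcode filters and scaling are not given in the sources used here. Barcode and read counts per construct were not analysed, so the depth behind a value is unknown. Which strand points to the reporter is not stated, and 3 value columns that average replicates were not used.

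Activities were taken as log2 and tested with limma 3.58.1 in R 4.3.3 (lmFit, eBayes), 3 values against 3, over all pairs of the Nanog locus in a family, with Benjamini-Hochberg adjustment at 0.05. Constructs that read 0 in a replicate did not enter. The script was tested on simulated data with the same small noise for every construct and large differences. The real spread between replicates was not simulated, so that test does not show how calls hold in these data. A construct and its baseline come from the same transfected sample, so same-numbered values are paired by design; the fit with the replicate as a block is given where it changes a count by over 1.5 times. Shares over all pairs of the locus are given only for adjusted calls of the fit without the block on all 3 replicates. Counts under other fits, and counts at an unadjusted p, have no such share beside them. Fragments were named by rule: the 10 highest and 5 lowest cCREs before P010, those called in 2 or more combinations, those nearest to Nanog or within 10 kb, and up to 8 by size from each other test. Members, lists and tests were chosen with earlier results of these data known. Genes and promoter sequences are from RefSeq (GRCm38.p6). Coordinates are as the table gives them, with no statement of whether they count from 0 or 1. Plots used Python 3.11.15 and matplotlib 3.10.9. The cCRE with a call between the strands of P010 is not reported here by name.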

Additional observations from a re-analysis of the deposited data

How the results depend on the processing

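The 41 calls with the cCRE before P010 and the 43 with P010 first kept their direction under each alternative run, and none was reversed. Counts moved with most settings. The ranges on leaving out a replicate (2 values against 2), over the 3 omissions, were 0 to 21 higher and 0 to 1 lower calls with the cCRE first, 0 to 30 higher and 0 to 17 lower with P010 first, 0 to 0 against the second promoter and 0 to 9 against the first, 0 to 0 for order, cCRE strand and promoter strand, and 0 to 4 against other promoters. The median with P010 first lay between -0.38 and -0.25, against -0.40. For P010 alone by strand the adjusted p was 0.55, with 0.026 under the replicate block and 0.035 with an intensity trend.

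The pairing of values by sample, fitted as a replicate block, gave 54 higher and 18 lower calls with the cCRE first, 64 and 62 with P010 first, 0 and 29 promoter pairs (against the second and the first promoter), 0 for promoter strand and 9 against other promoters. Without constructs of low activity (under the locus median of 0.147 on both sides) there were 60 and 19 calls with the cCRE first, 66 and 49 with P010 first, 5 and 25 promoter pairs, 34 for order, 11 for cCRE strand and 14 for promoter strand. With an intensity trend these were 64 and 18, 70 and 35, 11 and 24, 50, 17 and 23. With the median construct as baseline, lower calls were 6 with the cCRE first and 4 with P010 first, and 0 promoter pairs were called against the second promoter. With constructs at 0 kept (pseudocount 0.01), 0 were called for promoter strand. The causes were not tested. Barcode numbers per construct were not analysed here, and replicates share their plasmids, so errors cover differences between transfections only; activities near the empty construct limit how far a decrease can be seen.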
